A study of Ascodesmis nigricans with 6 samples.

Results

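The 200 longest of 9622 gene models of the cup fungus Ascodesmis nigricans were examined in 3 tissues. They were taken by mRNA length alone, as the table gives it, with ties broken by identifier, so the rule uses no expression value. The lengths ran from 17559 bases down to 4541, with a median of 5419 against 1230 over all models. The last model inside the limit, proteinId157831, had 4541 bases and the first outside it, proteinId128737, had 4537. Of the 200 models, 7 were longer than 10000 bases and 136 had at least 5000. They made up 2.08% of the models and 8.26% of the summed mRNA length. Lengths that were a multiple of 3 made up 48.5% of them and 51.3% of all models, so the lengths are not coding lengths alone.

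RNA of strain CBS 389.68, the strain behind all groups, was sequenced from total sexual mycelium, total vegetative mycelium and protoapothecia, with 2 independent biological replicates of each. Per the labels' protocols, all cultures had 3 days at 25 °C on rabbit food agar (150 to 200 µl with 0.8% agar, on slides for microdissection), then ethanol fixation, RNA extraction and linear amplification. Laser microdissection is a label of the protoapothecia only, so tissue and way of collection cannot be told apart. Libraries held 11589777 to 12835772 counts. The tissues could not be checked by marker genes, because the table gives no gene names. In such bulk RNA, fewer cells of a type and less RNA per cell cannot be told apart.

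Protoapothecia are the young stages of the cup-shaped fruiting bodies whose open surface later bears the spores, and they arise from mycelium. In filamentous fungi the longest genes are known to include those for very large proteins such as dynein heavy chain, which moves cargo along microtubules, midasin, which works in ribosome assembly, and polyketide synthases and nonribosomal peptide synthetases, multidomain enzymes that build secondary metabolites. Such roles cannot be assigned to single models here, since the table pairs no identifier with a product. In RNA sequencing a long transcript yields more fragments per molecule than a short one, so levels are compared between models only per kilobase of mRNA (CPM per kb, CPM being counts scaled to a common library size with trimmed-mean factors, TMM, per kilobase of mRNA length), and each model is compared between tissues by its CPM.

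Every one of the 200 longest models had counts in all 6 libraries, and all 200 passed the filter on low counts. Among all models, 1784 (18.5%) had 0 counts in at least 1 library. The lowest value of a long model was 1 count in a library, and 24 of the 200 were under 20 counts somewhere. Those low values lay in vegetative mycelium (10 models in each library) and protoapothecia (8 in replicate 1 and 5 in replicate 2), and 0 models were under 20 counts in a sexual library.

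The long models took a small share of the counts, larger in sexual mycelium and protoapothecia than in vegetative mycelium. Their share was 1.10% and 1.50% in the sexual libraries, 0.597% and 0.671% in the vegetative libraries, and 1.45% and 1.40% in the protoapothecia libraries. Both vegetative libraries lay below the other 4, whereas the protoapothecia values fell between those of the sexual replicates. The mean share was 1.42% ± 0.0385 in protoapothecia and 0.634% ± 0.0529 in vegetative mycelium (SD, n = 2), a ratio of 2.24. In sexual mycelium it was 1.30% ± 0.283 (SD, n = 2), 2.05 times the vegetative mean. An exact permutation test, two-sided, gave p = 0.333 for each of these contrasts with vegetative mycelium, the smallest p that this test allows with 2 libraries against 2, so it cannot go under 0.05 here. Protoapothecia and sexual mycelium were at a ratio of 1.10 (exact permutation p = 1.00). These shares are of library totals, without TMM factors. On that scale the median log2 fold change of sexual over vegetative mycelium was 1.14 over the long models and 1.15 over all tested models. For protoapothecia over vegetative mycelium the medians were 0.40 and 0.24. With TMM factors, the long models summed to 1683 ± 297 CPM per kb in sexual mycelium, 1337 ± 135 in vegetative mycelium and 2851 ± 23.4 in protoapothecia (SD, n = 2 for each).

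Divided by length, the models had a lower median level than all tested models in every tissue. Coverage along the mRNA was not examined in this amplified RNA. The values per kb therefore hold only if reads spread over the full length. Their median level was 5.86 and 6.92 CPM per kb in the sexual libraries, 4.08 and 5.09 in the vegetative libraries, and 5.20 and 5.67 in the protoapothecia libraries. Over all tested models the medians were 15.2 and 16.1, 10.4 and 11.1, and 13.6 and 12.8 CPM per kb. Across the 200 models, level per kb and length had a Spearman correlation of -0.28 in sexual mycelium, -0.13 in vegetative mycelium and -0.09 in protoapothecia, given as a description over models that share libraries. The 50 longest models had medians of 4.14, 3.53 and 4.54 CPM per kb in the 3 tissues in that order, and models 51 to 100 by length had 7.54, 5.70 and 6.91. Beyond the length limit, models 201 to 400 had 9.93, 6.74 and 5.92. These also lay under the medians of all tested models by tissue mean (16.1, 10.9 and 13.3), so a low level per kb is not particular to the 200.

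The replicates of both mycelia differed in their counts on long models. The median log2 ratio of replicate 2 to replicate 1, on log2(CPM + 1), was 0.26 in sexual and 0.21 in vegetative mycelium over the 200 models, against 0.05 and 0.03 over all tested models. Replicate 2 was the higher one for 79.5% of the long models in sexual mycelium, 75.5% in vegetative mycelium and 51.5% in protoapothecia, where the median ratio was 0.02. Going down in length, the median ratio in vegetative mycelium was 0.18 for models 201 to 400, 0.10 for models 801 to 1600 and 0.00 for models 3201 to 6400. In sexual mycelium it was 0.23, 0.23 and 0.01 at the same ranks and -0.11 for the shortest models, ranks 6401 to 9622. Removing this trend between replicates, an alternative chosen after the data were seen, gave 140 called long models against 135 for protoapothecia with sexual mycelium, 147 against 144 for protoapothecia with vegetative mycelium and 66 against 58 for the mycelia. Over all tested models the share called also rose slightly, from 67.5% to 68.3%, from 75.1% to 75.8% and from 45.5% to 46.9%. This setting takes differences between replicates out of the spread by construction, so the added calls are not read as a result.

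**Figure D1:**
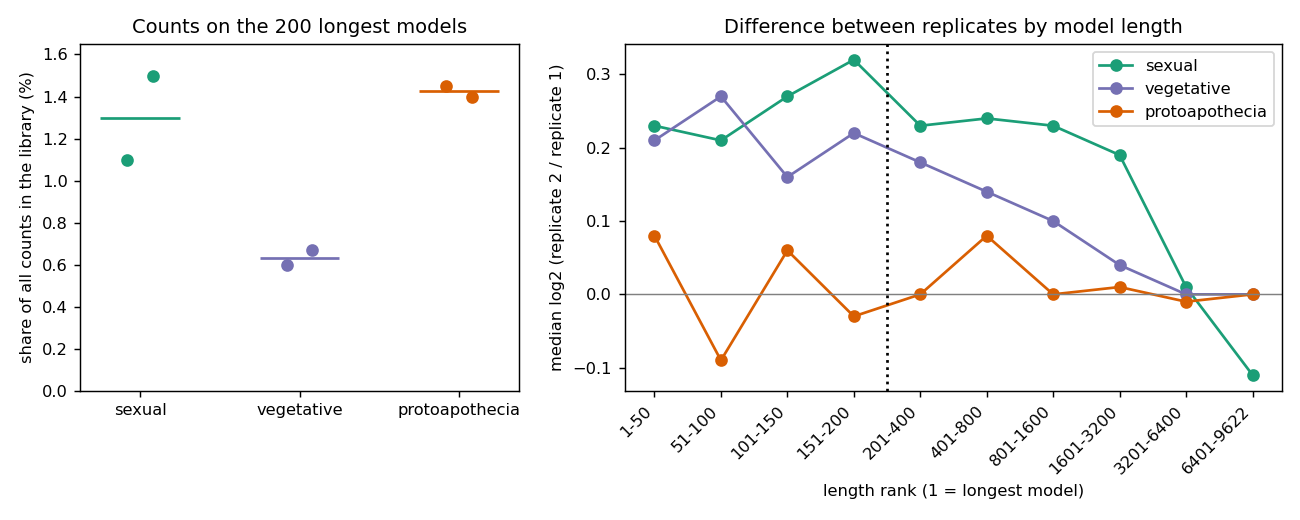
Left, the share of each library's counts (%) on the 200 longest models, 1 point per library, with the mean of the 2 replicates as a line. Right, the median log2 ratio of replicate 2 to replicate 1 by length rank (1 is the longest model, the dotted line ends the 200). Vegetative libraries lie at 0.597% and 0.671%, and the ratio in both mycelia is above 0 on long models and near or below 0 on short ones.

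The expression of the 10 longest models shows the range of patterns. The longest of all, proteinId340667 (17559 bases), was at 36.4 and 50.7 CPM in the sexual libraries, 40.5 and 42.8 in the vegetative libraries and 94.2 and 66.7 in the protoapothecia libraries. Both protoapothecia libraries lay above the other 4. The log2 fold change was 0.88 ± 0.28 (SE) against sexual mycelium (edgeR adjusted p = 0.0260) and 0.95 ± 0.28 against vegetative mycelium (edgeR adjusted p = 0.0174). Both calls were fragile. The first no longer passed without sexual replicate 1 (0.68), vegetative replicate 1 or 2 (0.87 each) or protoapothecia replicate 1 (0.64). The second no longer passed without vegetative replicate 1 (0.90), vegetative replicate 2 (0.98) or protoapothecia replicate 1 (0.68). With upper-quartile factors neither passed (0.59 and 0.62), nor did the first with library totals (0.25) or the second with the length trend in every library removed (0.31).

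The second longest model, proteinId321183 (14991 bases), differed more. Its level was 13.0 and 13.5 CPM in sexual mycelium, 25.6 and 24.9 in vegetative mycelium, and 90.7 and 114 in protoapothecia. The 3 tissues did not overlap. It was 7.70-fold higher in protoapothecia than in sexual mycelium (log2 fold change 2.94 ± 0.25, edgeR adjusted p = 0.000134) and 4.05-fold higher than in vegetative mycelium (2.02 ± 0.24, edgeR adjusted p = 0.000258). The first log2 fold change was 2.31 with library totals and the second 1.42 with the length trend in every library removed, and both still passed. Between the mycelia it was lower in the sexual one (-0.93 ± 0.23, edgeR adjusted p = 0.0175), a call that ended without sexual replicate 1 (-0.92), without vegetative replicate 1 (-0.90) or 2 (-0.94), and with library totals (-0.21).

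The sixth longest model, proteinId397708 (11113 bases), was lowest in vegetative mycelium. It had 3.67 and 5.33 CPM there, 18.6 and 33.5 in sexual mycelium and 44.2 and 55.8 in protoapothecia. It was 11.1-fold higher in protoapothecia (log2 fold change 3.47 ± 0.40, edgeR adjusted p = 0.000248) and 5.77-fold higher in sexual mycelium (2.53 ± 0.39, edgeR adjusted p = 0.00280) than in vegetative mycelium. Against sexual mycelium the protoapothecia were at 0.94 ± 0.36 (edgeR adjusted p = 0.0519), just short of the threshold, and this passed under 7 of the other settings, among them RLE size factors (1.26), the replicate block (0.99) and the fit without sexual replicate 2 (1.45).

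Lower levels in protoapothecia were found for 2 of the longest models. One, proteinId371639 (12282 bases), was at 65.7 and 74.0 CPM in sexual mycelium, 40.5 and 46.5 in vegetative mycelium and 22.6 and 29.8 in protoapothecia, and the other, proteinId109467 (11593 bases), at 31.2 and 43.7, 32.3 and 36.8, and 15.3 and 14.3 CPM. Neither model's protoapothecia libraries overlapped with a mycelium. Against sexual mycelium the log2 fold changes were -1.41 ± 0.25 and -1.34 ± 0.27 (edgeR adjusted p = 0.00237 and 0.00443). Against vegetative mycelium they were -0.73 ± 0.25 and -1.22 ± 0.27 (edgeR adjusted p = 0.0311 and 0.00537), and the first of these ended without vegetative replicate 1 (-0.84), vegetative replicate 2 (-0.63) or protoapothecia replicate 1 (-0.54), and with library totals (-0.64).

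The eighth model, proteinId366172 (9718 bases), was highest in sexual mycelium, with 37.3 and 47.4 CPM there, 7.85 and 15.2 in vegetative mycelium and 18.6 and 14.7 in protoapothecia. Sexual mycelium lay above both other tissues, which overlapped. The log2 fold change of sexual over vegetative mycelium was 1.87 ± 0.38 (edgeR adjusted p = 0.00746) and that of protoapothecia over sexual mycelium -1.35 ± 0.37 (edgeR adjusted p = 0.0152), the latter lost without sexual replicate 2 (-1.14) or protoapothecia replicate 2 (-1.20). The tenth model, proteinId398143 (8745 bases), was at 209 and 194 CPM in protoapothecia, against 63.8 and 62.3 in sexual and 43.6 and 62.0 in vegetative mycelium. Its protoapothecia levels passed against both mycelia (log2 fold changes 1.68 ± 0.25 and 1.93 ± 0.25, edgeR adjusted p = 0.00111 and 0.000424).

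The other 3 of the 10 longest passed in no comparison. The third, proteinId398586 (13656 bases), lay between 56.7 and 106 CPM in all libraries, and the ninth, proteinId53272 (9371 bases), between 14.7 and 29.3 CPM. The seventh, proteinId322121 (10328 bases), lay between 51.8 and 90.6 CPM, and those 2 extremes were its protoapothecia replicates. Its 3 log2 fold changes were 0.07, -0.02 and -0.09, each ± 0.31. At such errors a difference of moderate size may go unseen.

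Young fruiting bodies were first set against the mycelium labelled as sexual. In protoapothecia, 63 of the 200 long models were higher and 72 were lower, and 65 did not pass. The called models were 67.5% of the 200, and called models were 67.5% of all 8861 tested. By direction the shares were 31.5% higher and 36.0% lower, against 30.7% and 36.9% over all tested models. These shares are near the background and read as no result about the long models. The median log2 fold change was 0.09 over the long models and -0.16 over all tested models, and among the called long models it was 1.70 for the higher and -2.12 for the lower ones. A fitted fold of 10 or more was reached by 7 higher and 11 lower long models. Fold changes of that size, called or not, were found for 18 of the 200 long models, a smaller share than the 20.7% of all tested models.

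**Figure D2:**
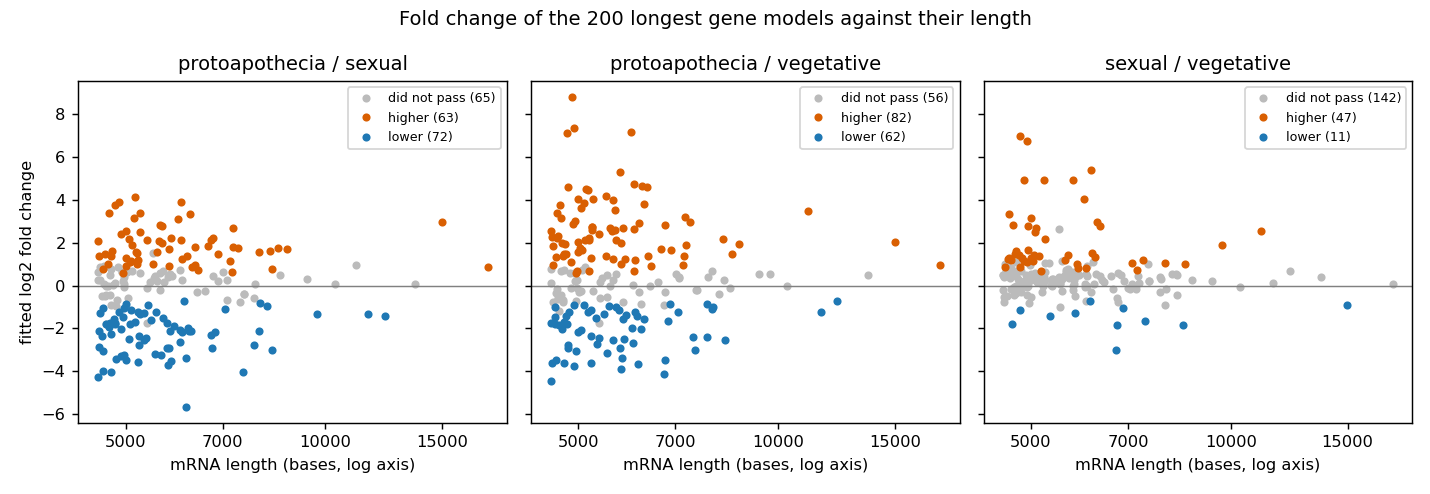
Fitted log2 fold change of the 200 longest models in the 3 comparisons against mRNA length (log axis), 1 point per model, coloured by whether it was called higher, called lower or did not pass. Changes in both directions occur from 4541 bases up, and sexual against vegetative mycelium has the fewest called models, 58 against 135 and 144.

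The model with the highest fold change against sexual mycelium, proteinId360769 (5167 bases), was also the most abundant long model of the protoapothecia. It was at 1756 and 1255 CPM there, at 66.8 and 106 in sexual mycelium and at 72.3 and 64.8 in vegetative mycelium. Both protoapothecia libraries were far above the mycelia, which overlapped. It was 17.4-fold higher than in sexual mycelium (log2 fold change 4.12 ± 0.35, edgeR adjusted p = 0.000144) and 22.0-fold higher than in vegetative mycelium (4.46 ± 0.36, edgeR adjusted p = 5.71e-05). Per length it stood at 291 ± 68.5 CPM per kb (SD, n = 2), first among the 200, and it ranked 20th in sexual and 27th in vegetative mycelium.

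Next by level came proteinId398649 (6243 bases), with 1124 and 1110 CPM in protoapothecia, 96.3 and 126 in sexual and 38.5 and 51.1 in vegetative mycelium. The 3 tissues did not overlap. It was 10.1-fold higher than in sexual mycelium (log2 fold change 3.33 ± 0.29, edgeR adjusted p = 0.000149) and 24.9-fold higher than in vegetative mycelium (4.64 ± 0.31, edgeR adjusted p = 3.43e-05), at 179 ± 1.53 CPM per kb (SD, n = 2). It was also higher in sexual than in vegetative mycelium (1.31 ± 0.27, edgeR adjusted p = 0.00828), a call lost without vegetative replicate 1 (1.13). These 2 models took 17.8% and 14.8% of the counts of all long models in the protoapothecia replicates. Their part was 1.96% and 2.19% in the sexual and 1.56% and 1.41% in the vegetative libraries. Without them, the share of all counts on long models was 1.19% in each protoapothecia library, 1.08% and 1.46% in the sexual and 0.587% and 0.662% in the vegetative libraries. The vegetative libraries thus also lay lowest when these models were left out.

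The next models by fold change over sexual mycelium, after proteinId360769 and with proteinId364696 described below, were abundant in protoapothecia to different degrees. The model proteinId320740 (6059 bases) was at 312 and 416 CPM in protoapothecia, 22.2 and 26.4 in sexual and 11.4 and 16.1 in vegetative mycelium, and proteinId315297 (4821 bases) at 303 and 298, 19.8 and 25.5, and 15.1 and 10.1 CPM. Both had their 3 tissues apart, and they stood 15.0-fold and 13.3-fold, respectively, above sexual mycelium (edgeR adjusted p = 0.000117 and 0.000125). The rarer proteinId322162 (4713 bases) was at 28.1 and 32.6 CPM in protoapothecia against 2.43 and 3.31 in sexual and 3.57 and 3.33 in vegetative mycelium. Its fold over these tissues was 10.5 and 8.78, respectively (edgeR adjusted p = 0.000230 and 0.000181). Between the mycelia this last model had a log2 fold change of -0.26 ± 0.34 that did not pass. The first pair barely passed there, at 0.82 ± 0.28 and 0.85 ± 0.28 (edgeR adjusted p = 0.0493 and 0.0429). Both calls ended without sexual replicate 2 (0.66 and 0.63), vegetative replicate 1 (0.60 and 1.17), vegetative replicate 2 (1.09 and 0.59) or protoapothecia replicate 1 (0.79 and 0.82). The call of proteinId320740 also ended without sexual replicate 1 (0.92), and that of proteinId315297 without protoapothecia replicate 2 (0.85) and with the replicate block (0.86). With RLE size factors neither passed (0.58 and 0.60).

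In the opposite direction, proteinId221563 (6169 bases) had the lowest fold change of the 200 against sexual mycelium. It was at 113 and 175 CPM in sexual mycelium, 1.73 and 5.14 in vegetative mycelium and 2.08 and 3.53 in protoapothecia. High levels were thus found in the sexual libraries, while the other 2 tissues overlapped. It was 51.1-fold lower in protoapothecia than in sexual mycelium (log2 fold change -5.67 ± 0.59, edgeR adjusted p = 0.000288) and 41.6-fold higher in sexual than in vegetative mycelium (5.38 ± 0.58, edgeR adjusted p = 0.000838). The latter rested on few vegetative counts, 17 and 54, and was 6.37 on the log2 scale without vegetative replicate 2.

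The other 4 of the 5 models with the lowest fold changes against sexual mycelium were also lower than in vegetative mycelium. Between the mycelia they were not called in the fit with TMM factors and no further adjustment. The shortest of the 200, proteinId157831, was at 52.4 and 56.9 CPM in sexual, 55.6 and 69.5 in vegetative mycelium and 2.75 and 2.98 in protoapothecia. It was 19.0-fold lower than in sexual mycelium (log2 fold change -4.25 ± 0.28, edgeR adjusted p = 8.45e-05) and 21.7-fold lower than in vegetative mycelium (-4.44 ± 0.28, edgeR adjusted p = 3.00e-05). The next model past the length limit, proteinId128737, had 45 and 41 counts in protoapothecia, 674 and 1054 in sexual and 370 and 488 in vegetative mycelium. Next to these, proteinId397298 just inside the limit had 429 and 321 counts in protoapothecia and 350 and 603 in sexual mycelium, and proteinId326197 just outside it had 216 and 162 and 407 and 543. Lower than in sexual mycelium by log2 fold changes of -4.04 ± 0.36, -4.01 ± 0.41 and -3.96 ± 0.30 were also proteinId374856, proteinId222758 and proteinId172357 (edgeR adjusted p = 0.000153, 0.000249 and 0.000112). In protoapothecia these 3 were at 1.23 to 5.11 CPM, and in the mycelia at 13.2 to 73.5 CPM. All 3 were called higher in sexual than in vegetative mycelium with library totals (1.16, 1.72 and 1.23). The model proteinId222758 was also called with the replicate block (1.02, against 0.99 ± 0.35) and with the length trend between replicates removed (1.00). With the length trend in every library removed, proteinId157831 was called lower in sexual mycelium (-0.69, against -0.19 ± 0.23).

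The balance of directions in this comparison followed the scaling. Higher models were 46.7% of the called long models with TMM factors, 56.7% with RLE size factors (the median of ratios used by DESeq2) and 28.9% with library totals. Over all tested models the shares were 45.4%, 53.1% and 30.9%, and the median log2 fold change of all tested models was -0.16, 0.15 and -0.78. The folds given for single models moved with this shift: with library totals 29 of the 31 named models called here moved by over 1.5-fold and the other 2 lost their call. The log2 fold change of proteinId360769 was then 3.49 in place of 4.12, and that of proteinId221563 was -6.31 in place of -5.67.

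The comparison of protoapothecia with vegetative mycelium gave the most called long models. In protoapothecia, 82 of the 200 were higher and 62 lower, and 56 did not pass. The called models were 72.0% of the long models and 75.1% of all tested models, with 41.0% higher and 31.0% lower against 39.8% and 35.3%. The medians of the log2 fold change were 0.31 over the long models and 0.15 over all tested models. A fold of 10 or more was reached by 22 higher and 11 lower called models, and by 16.5% of the long models against 34.1% of all tested ones. The median of the long models turned to -0.02 with upper-quartile factors, where that of all tested models was -0.17.

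The highest fold changes here belonged to models near 0 in vegetative mycelium. The model proteinId364696 (4889 bases) had 1 and 3 counts in the vegetative libraries, 71 and 135 in the sexual and 822 and 1170 in the protoapothecia libraries. Its pooled level was 468-fold higher in protoapothecia than in vegetative mycelium (95% exact counting interval 183 to 1720) and 31.9-fold higher in sexual than in vegetative mycelium (interval 12.3 to 118). Both passed (edgeR adjusted p = 2.95e-05 and 0.000877), and it was also higher in protoapothecia than in sexual mycelium (log2 fold change 3.89 ± 0.38, edgeR adjusted p = 0.000222). Without vegetative replicate 2, whose 3 counts were the larger value, the fitted log2 fold changes against vegetative mycelium went from 8.80 to 9.67 for protoapothecia and from 4.91 to 5.80 for sexual mycelium. The model proteinId374627 (5787 bases), with the lowest total of the 200 at 197 counts, had 1 count in each vegetative library, 54 and 51 in the sexual and 67 and 23 in the protoapothecia libraries. Its pooled ratio of protoapothecia to vegetative mycelium was 42.3 (interval 11.4 to 355), its fitted log2 fold change was 5.28 ± 0.93 (edgeR adjusted p = 0.00173), and that was 4.27 without protoapothecia replicate 1 and 5.87 without protoapothecia replicate 2.

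A group of 3 models joined low vegetative with high protoapothecia levels. The first, proteinId344137 (4933 bases), was at 95.8 and 178 CPM in protoapothecia, 44.4 and 134 in sexual and 0.714 and 0.951 in vegetative mycelium. The second, proteinId318721 (6005 bases), was at 102 and 65.9, 10.4 and 9.30, and 0.510 and 0.666 CPM. The third, proteinId322197 (4816 bases), was at 117 and 100, 17.3 and 185, and 0.816 and 0.761 CPM. All 3 had a vegetative level under 1 CPM, but only the second had protoapothecia and sexual libraries that did not overlap. Above vegetative mycelium, protoapothecia stood 162-fold, 140-fold and 136-fold (edgeR adjusted p = 0.000157, 2.61e-05 and 0.00173).

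The lowest fold changes against vegetative mycelium, after that of proteinId157831, were those of proteinId367673 and proteinId350518. The model proteinId367673 (6729 bases) was at 127 and 121 CPM in vegetative mycelium, 39.5 and 30.2 in sexual mycelium and 5.87 and 8.14 in protoapothecia. Its 3 tissues were apart and in falling order. All 3 comparisons passed: it was 17.6-fold lower in protoapothecia than in vegetative mycelium (edgeR adjusted p = 4.01e-05), 4.96-fold lower in protoapothecia than in sexual mycelium (edgeR adjusted p = 0.000457) and 3.55-fold lower in sexual than in vegetative mycelium (edgeR adjusted p = 0.00219). The model proteinId350518 (5793 bases) was at 69.4 and 58.4 CPM in vegetative mycelium, 56.0 and 55.6 in sexual mycelium and 5.40 and 3.17 in protoapothecia, with a log2 fold change of -3.90 ± 0.33 (edgeR adjusted p = 7.13e-05). A further model, proteinId347640 (4926 bases), fell in protoapothecia by 3.76 ± 0.35 on the log2 scale (edgeR adjusted p = 9.49e-05). Last of these, proteinId385737 (6157 bases), had 36 and 3 counts in the protoapothecia libraries, and its log2 fold change of -3.66 ± 0.84 (edgeR adjusted p = 0.00637) was -6.37 without protoapothecia replicate 1 and -2.77 without protoapothecia replicate 2.

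**Figure D3:**
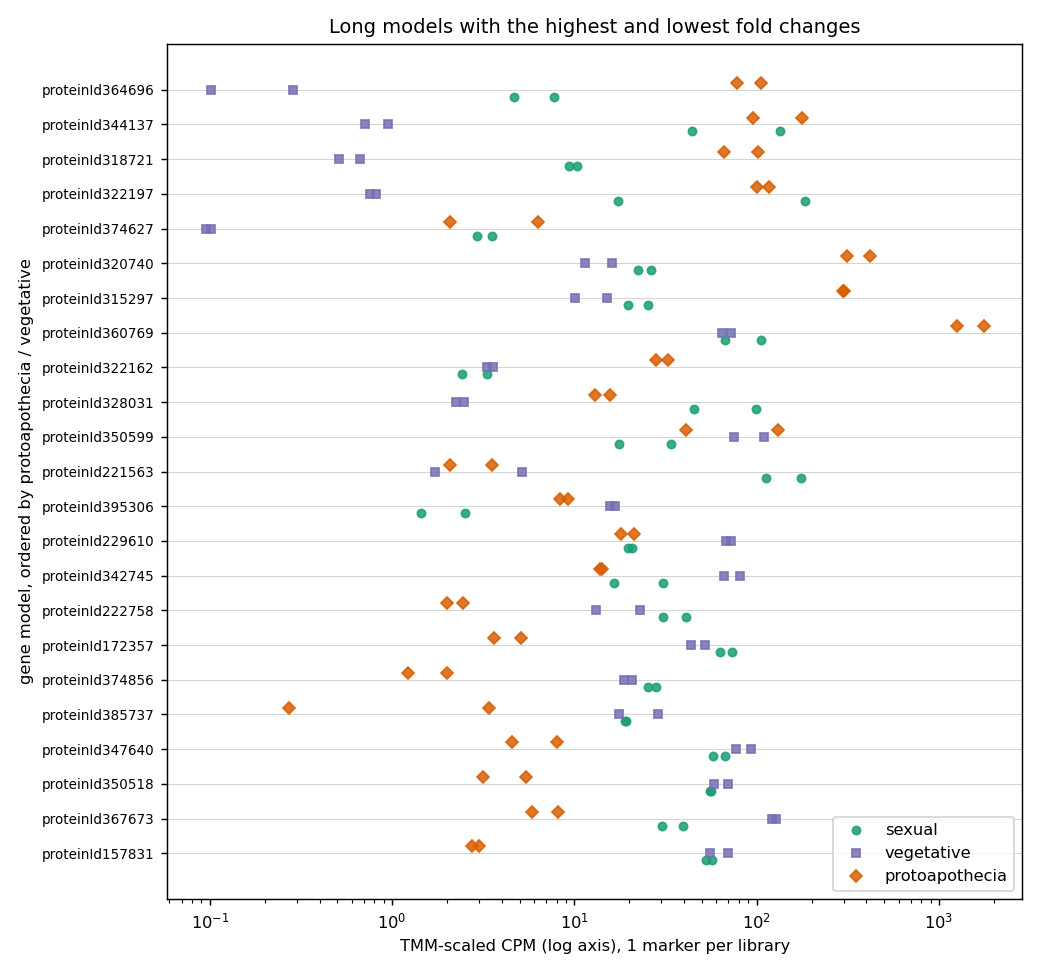
TMM-scaled CPM (log axis) of the long models with the 5 highest and 5 lowest fold changes of each comparison, 1 marker per library, ordered by the log2 fold change of protoapothecia over vegetative mycelium. At the top proteinId364696 goes from 0.102 CPM in a vegetative library to 106 in a protoapothecia library, and at the bottom proteinId157831 is at 2.75 and 2.98 in protoapothecia and above 50 in the mycelia.

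The 2 labelled forms of mycelium were then set against each other. The test called 47 long models higher and 11 lower in sexual mycelium, while 142 were not called. The called models were 29.0% of the 200, against 45.5% of all tested models, with 23.5% higher and 5.50% lower against 30.7% and 14.8%. The median log2 fold change was 0.42 in both sets. The interquartile range was 0.94 over the long models and 2.13 over all tested models, and a fold of 10 or more was found for 4.00% and 14.9%. The next 200 models by length had 35.5% called and an interquartile range of 1.15, so both measures also rose beyond the limit. Whether length itself accounts for this was not tested.

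**Figure D4:**
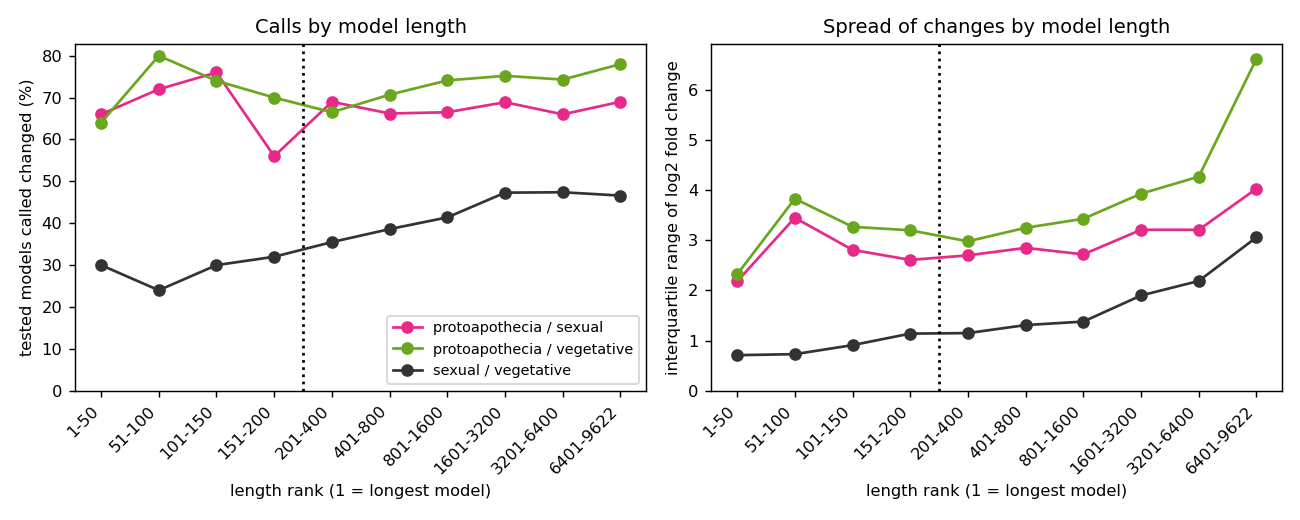
Share of tested models called (%, left) and interquartile range of the log2 fold change (right) by length rank, for the 3 comparisons. The dotted line ends the 200 longest models. For sexual against vegetative mycelium both measures are lower to the left of the line, with an interquartile range of 0.71 for the 50 longest and 3.06 for ranks 6401 to 9622.

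The models with the highest fold changes in sexual mycelium included several from the lists above. For proteinId322197 the sexual replicates were wide apart, with 264 and 3236 counts, against 8 and 8 in vegetative mycelium. Its log2 fold change of 6.98 ± 1.23 (edgeR adjusted p = 0.00471) was 7.84 without sexual replicate 1 and 4.41 without sexual replicate 2. Of the 200 models it had the largest gap between replicates, 3.34 on log2(CPM + 1). Between protoapothecia and sexual mycelium it did not pass (0.10 ± 0.87), and it passed in opposite directions without sexual replicate 1 (-0.75) and without sexual replicate 2 (2.67). For proteinId344137 the log2 fold change was 6.72 ± 0.74 (edgeR adjusted p = 0.000870), and 5.68 without sexual replicate 2. The model proteinId328031 (5241 bases) was at 45.1 and 98.8 CPM in sexual mycelium, 2.24 and 2.47 in vegetative mycelium and 13.0 and 15.6 in protoapothecia. Its tissues did not overlap, and the fold of sexual over vegetative mycelium was 30.4 (log2 fold change 4.92 ± 0.47, edgeR adjusted p = 0.000553, and 4.22 without sexual replicate 2).

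Of the 11 models lower in sexual mycelium, proteinId395306 (6726 bases) had the lowest fold change. It was at 1.44 and 2.51 CPM in sexual mycelium, 16.8 and 15.6 in vegetative mycelium and 9.19 and 8.32 in protoapothecia. The sexual libraries were the low ones. The fold was 8.13 (log2 fold change -3.02 ± 0.41, edgeR adjusted p = 0.00162), and it was 4.39-fold higher in protoapothecia than in sexual mycelium (edgeR adjusted p = 0.00295). The model proteinId229610 (4676 bases) was high in vegetative mycelium, with 72.3 and 67.6 CPM there, 20.6 and 19.8 in sexual mycelium and 21.3 and 18.0 in protoapothecia. Its log2 fold changes were -1.79 ± 0.24 between the mycelia (edgeR adjusted p = 0.00153) and -1.83 ± 0.24 between protoapothecia and vegetative mycelium (edgeR adjusted p = 0.000407). A like order held for proteinId342745 (7441 bases), at 81.4 and 66.0, 30.7 and 16.4, and 13.9 and 14.1 CPM. Between the mycelia its log2 fold change was -1.65 ± 0.34 (edgeR adjusted p = 0.00834), a call lost without vegetative replicate 1 (-1.48). The model proteinId350599 (8475 bases) was at 34.0 and 17.5 CPM in sexual, 109 and 75.0 in vegetative mycelium and 131 and 40.9 in protoapothecia. Its call between the mycelia, -1.84 ± 0.59 (edgeR adjusted p = 0.0406), ended without any 1 of the sexual or vegetative libraries (-2.41 and -1.46 without sexual replicates 1 and 2, -1.54 and -2.07 without vegetative replicates 1 and 2) and with library totals (-1.14). Its call of protoapothecia over sexual mycelium, 1.74 ± 0.59 (edgeR adjusted p = 0.0343), ended without sexual replicate 2 (1.36) or protoapothecia replicate 1 (0.70) and was 2.33 without protoapothecia replicate 2. The latter call also ended with upper-quartile factors (1.42) and with library totals (1.14). With the length trend between replicates removed, both calls of this model ended (-1.81 and 1.69).

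This comparison depended on scaling and on single libraries. With library totals 137 long models were called, 97.1% of them higher, and with RLE size factors 53, of which 66.0% were higher, against 58 and 81.0% with TMM factors. Over all tested models 60.8% were called with library totals, with 88.3% of the calls higher, and 44.6% with RLE size factors, with 57.5% higher, against 45.5% and 67.5% with TMM factors. With library totals the folds of 17 of the 19 named models called here moved by over 1.5-fold, the other 2 lost their call, and 13 named models gained one. Removing the length trend in every library, an alternative chosen after the data were seen, left 27 higher and 33 lower models, so the direction held by more of the called long models turned. Over all tested models 45.3% were called in that setting, and 54.2% of the calls were higher. Leaving out sexual replicate 2 left 36 calls, leaving out vegetative replicate 1 left 21, and leaving out vegetative replicate 2 left 32. Over all tested models 34.4%, 23.5% and 26.7% were then called.

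Taken over the 6 libraries, both protoapothecia libraries were above the 4 mycelium libraries for 79 of the 200 long models and below them for 71. Those are 39.5% and 35.5%, against 33.9% and 35.3% of all tested models. Both vegetative libraries were above the other 4 for 21 long models and below for 67, which is 10.5% and 33.5% against 21.5% and 35.0%. Both sexual libraries were above the other 4 for 50 of the 200, a larger share than the 20.3% of all tested models. They were below for 10 of the 200, a smaller share than the 9.42% of all tested models. Of the 200 models, 32 (16.0%) passed in no comparison, as did 12.5% of all tested models.

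**Figure D5:**
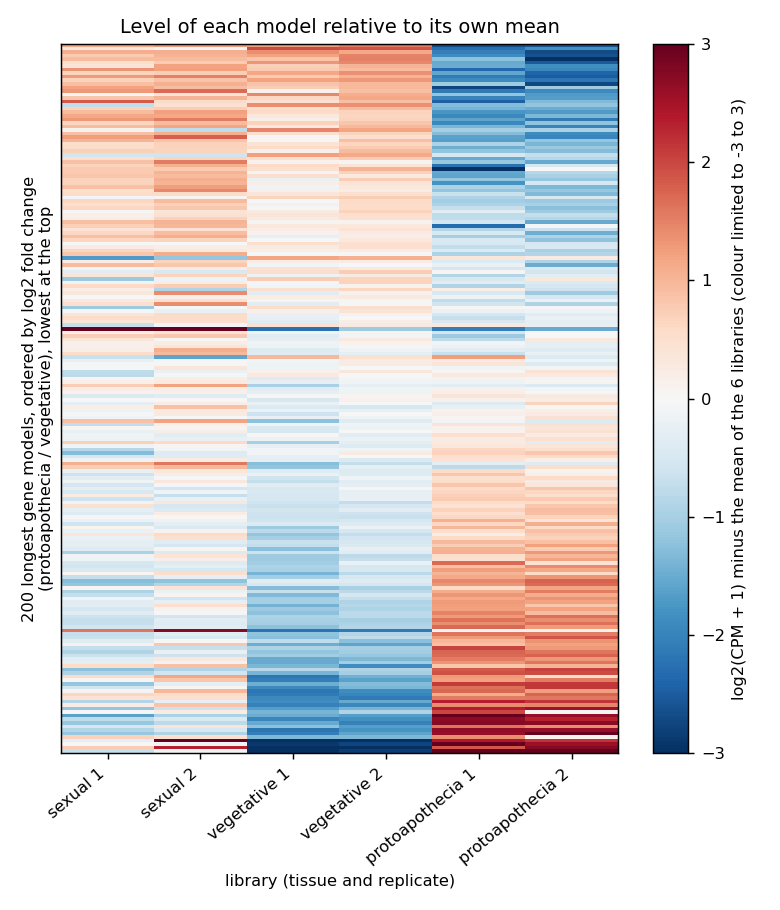
Level of each of the 200 longest models (rows) in the 6 libraries (columns), as log2(CPM + 1) minus the model's own mean, ordered by the log2 fold change of protoapothecia over vegetative mycelium. Protoapothecia libraries are low (blue) at the top and high (red) at the bottom. A few rows stand out by single libraries, such as proteinId352255, with 9 and 165 counts in the protoapothecia replicates.

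By level per length, the mycelia had other leading long models than the protoapothecia. In sexual mycelium proteinId47023 (4665 bases) was first at 58.1 ± 24.6 CPM per kb, followed by proteinId159710 (50.3 ± 22.0), proteinId323290 (36.9 ± 2.00) and proteinId352969 (36.8 ± 3.61; SD, n = 2 for each). By their SD these levels overlap, since the first pair had replicates up to a log2 gap of 0.92 apart. Even so, proteinId47023 was the highest of the 200 in each sexual library, at 40.7 and 75.5 CPM per kb. In vegetative mycelium proteinId352969 led at 38.3 ± 5.10 CPM per kb, before proteinId330284 (27.0 ± 2.87), proteinId323290 (26.4 ± 3.26) and proteinId159710 (25.9 ± 3.81; SD, n = 2 for each), of which the last 3 lay within their spread. The model proteinId47023 was at 25.2 ± 3.18 CPM per kb there, and ranked 49th of 200 in protoapothecia. In protoapothecia proteinId398655 (86.4 ± 7.79 CPM per kb) and proteinId397746 (85.8 ± 15.5 CPM per kb; SD, n = 2 for each) came after the 2 models named above, and did not differ beyond their spread.

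Between tissues, proteinId47023 was at 190 and 352 CPM in sexual, 107 and 128 in vegetative mycelium and 88.4 and 69.8 in protoapothecia, and proteinId159710 (4979 bases) at 173 and 328, 116 and 143, and 121 and 117 CPM. Sexual mycelium was the high tissue for both. Against it protoapothecia stood at -1.78 ± 0.34 and -1.07 ± 0.33 on the log2 scale (edgeR adjusted p = 0.00344 and 0.0253). The second of these calls was lost without sexual replicate 2 (-0.51), protoapothecia replicate 1 (-1.07) or 2 (-1.06), and with RLE size factors (-0.75). Between the mycelia proteinId47023 passed at 1.20 ± 0.34 (edgeR adjusted p = 0.0257), which ended without sexual replicate 2 (0.66), vegetative replicate 1 (1.09) or 2 (1.34), while proteinId159710 was at 0.96 ± 0.33 and did not pass.

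Among the other leading models, proteinId323290 (6829 bases) was at 242 and 262 CPM in sexual, 196 and 165 in vegetative mycelium and 44.8 and 68.8 in protoapothecia, and proteinId352969 (4815 bases) at 165 and 189, 167 and 202, and 40.9 and 64.9 CPM. Both had protoapothecia below all mycelium libraries, with log2 fold changes of -2.15 ± 0.29 and -1.74 ± 0.29 against sexual mycelium (edgeR adjusted p = 0.000671 and 0.00187). The model proteinId398655 (5806 bases) was at 470 and 534 CPM in protoapothecia, 130 and 179 in sexual and 105 and 152 in vegetative mycelium. Its mycelia overlapped, and its log2 fold change against sexual mycelium was 1.70 ± 0.30 (edgeR adjusted p = 0.00224). The model proteinId397746 (5004 bases) was at 375 and 484, 65.9 and 81.0, and 107 and 104 CPM, with log2 fold changes of 2.55 ± 0.26 and 2.02 ± 0.25 for protoapothecia against sexual and vegetative mycelium (edgeR adjusted p = 0.000240 and 0.000350).

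The model proteinId330284 (6046 bases) was at 81.1 and 120 CPM in sexual, 151 and 176 in vegetative mycelium and 144 and 187 in protoapothecia. It passed in no comparison, although its log2 fold change of protoapothecia over sexual mycelium, 0.72 ± 0.28, passed under 6 other settings, among them RLE size factors (1.04) and the replicate block (0.73). Without sexual replicate 2 both this value (1.05) and that of sexual over vegetative mycelium (-1.04, against -0.70 ± 0.28) passed. The smallest differences, besides those of proteinId322121, were those of proteinId395885 (5579 bases), between 85.4 and 119 CPM in all libraries, and proteinId92453 (5386 bases), between 17.0 and 25.6 CPM. Their largest log2 fold changes were -0.24 ± 0.25 and 0.26 ± 0.28, both between the mycelia. There proteinId395885 passed with the length trend in every library removed (-0.75) and proteinId92453 with library totals (0.98).

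The median absolute log2 ratio between replicates was 0.31 in sexual and 0.24 in vegetative mycelium and 0.35 in protoapothecia, against 0.32, 0.19 and 0.34 over all tested models. More than a 2-fold gap was found for 8, 2 and 18 of the 200 long models in these tissues. Each is a smaller share than that of all tested models, which was 9.98%, 2.80% and 10.1%. Next to proteinId322197, the widest gaps were those of proteinId352255 (9 and 165 counts in protoapothecia) and proteinId397523 (12 and 105). Neither passed against a mycelium with all libraries and TMM factors, while proteinId397523 passed against sexual mycelium with library totals (-2.43). Both did without protoapothecia replicate 2, at log2 fold changes of -4.94 and -4.02 against sexual and -4.93 and -3.42 against vegetative mycelium, and the second also passed against sexual mycelium without protoapothecia replicate 1 (-0.93).

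In the authors' deposited table, DESeq calls 141 long models for protoapothecia against sexual mycelium (79 higher, 62 lower), 70.5% of the 200 against 63.5% of all models. Of these calls in the authors' deposited table, 125 were made by edgeR in the same direction and 16 were not, while edgeR alone called 10. For protoapothecia against vegetative mycelium the authors' deposited table has 146 calls (84 higher, 62 lower), 73.0% of the long models against 70.8% of all models, and these hold all 144 of edgeR. For sexual against vegetative mycelium the authors' deposited table has 56 calls (36 higher, 20 lower), 28.0% of the long models against 43.8% of all models, and 47 of them were shared with edgeR in direction. No long model had opposite calls in the authors' deposited table and by edgeR. The shares of all models given here are out of 9622, of which 9554, 9554 and 9076 have an adjusted p in the authors' deposited table, in the same order. All 200 long models have one. The edgeR shares are out of the 8861 models that passed the filter on low counts, so the backgrounds are not alike. In the authors' deposited table more long models are higher than lower in protoapothecia against sexual mycelium, and with edgeR and TMM factors more are lower. Over all models the authors' deposited table likewise has 3231 higher and 2877 lower, and edgeR had 2718 and 3267 among those tested. The change of direction is thus not particular to the long models. Against vegetative mycelium the authors' deposited table has 3719 higher and 3091 lower over all models for protoapothecia, and 2418 and 1801 for sexual mycelium.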

How the data were processed

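The deposited table gives raw counts per gene model for each library, per the file headers, with mRNA lengths and the authors' DESeq ratios and adjusted p-values (p-values written to 2 decimals, so a call from that table is a written value under 0.05). The submitters' processing notes name DESeq, without a version. For the aligner, counter, genome build, strand setting and shared reads the sources used here give nothing, so counts of near-identical or overlapping models are uncertain. Other columns of the authors' comparisons were not used, and 0 per-sample columns were left unused.

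The rule for the members uses length alone, but that rule, the gene lists and the tests were chosen with earlier results of these data known. Models were ranked by length and the first 200 taken. All 6 libraries were fitted by group with edgeR 4.0.16 (filterByExpr, which removed 761 models; TMM factors; robust quasi-likelihood test; limma 3.58.1, R 4.3.3), and a model was called at a Benjamini-Hochberg adjusted p under 0.05 over all 8861 tested, two-sided. SE is the log2 fold change over the square root of the F statistic. CPM uses effective library sizes. Log2 ratios of replicates used a pseudocount of 1 CPM. Counting intervals are Clopper-Pearson at 95% and hold for counting error alone, because reads of amplified RNA need not come from separate molecules. The figures come from matplotlib 3.10.9.

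The models named are the 10 longest; per comparison the 5 highest and 5 lowest fold changes among called models that averaged 20 counts or more in the higher group, with no overlap; the 4 highest per kb in each tissue; the 3 steadiest; the 3 widest replicate gaps; and the models at the length limit. A further rule, for models at 0 counts in both libraries of a tissue, named none. In counts simulated for each comparison with 200 genes changed, the test recovered 96.9%, 97.0% and 100% of genes changed 8-fold, 67.7%, 73.8% and 55.4% of those changed 4-fold, and 3.08%, 10.4% and 7.46% of those changed 2-fold (8683, 8694 and 8681 genes tested, in the order of the report). The simulation changed 200 genes and gave every gene the same spread, whereas 45.5% to 75.1% of tested models were called in the data. Its rates therefore do not give the share of real changes found here. Alternatives were 15 planned settings and 3 added after the data were seen.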

Additional observations from a re-analysis of the deposited data

How the results depend on the processing

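For the long models called in protoapothecia, the count stayed within 1.5 times under all settings run: 118 to 144 against 135 for the comparison with sexual mycelium and 120 to 148 against 144 for that with vegetative mycelium. Leaving out 1 library gave 118 to 126 and 120 to 148 called models in these comparisons. Library totals gave 37 higher models against 63 in protoapothecia over sexual mycelium. For sexual against vegetative mycelium, leaving out 1 library gave 21 to 67 called models, 18 to 55 higher and 3 to 12 lower, against 58, 47 and 11; the lowest were without vegetative replicate 1, and the library left alone in its tissue is taken to vary as the rest do. Library totals gave 137 called, 133 higher and 4 lower. Lower models numbered 18 with RLE size factors, 22 with the DESeq2 Wald test and 23 with the 2 groups fitted alone, and 27 were higher and 33 lower after removal of the length trend in every library. The cause was not tested, except that the last setting removes differences along length by construction. The share of counts without 1 library of its own tissue was 1.10% to 1.50% (sexual), 0.597% to 0.671% (vegetative) and 1.40% to 1.45% (protoapothecia). No call of a named model turned its direction under these settings, but the uncalled difference of proteinId322197 between protoapothecia and sexual mycelium passed in opposite directions without 1 library, with values from -0.75 (without sexual replicate 1) to 2.67 (without sexual replicate 2) against 0.10. In the planned settings 1918 values of named models kept their side of the threshold, 58 lost it, 48 gained it in the same direction and 1, that of proteinId322197, gained it in the opposite direction.

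The replicate numbers were not shown to pair the libraries: deviations of same-numbered libraries from their group means correlated at -0.158, 0.0363 and -0.0295. The fit with the replicate block called 136, 141 and 52 long models, and 64.3%, 73.0% and 41.7% of all tested models. Exchanging the vegetative numbers, added after the data were seen, gave 54 in sexual against vegetative mycelium. With 2 libraries per group, differences of 2-fold or less may be missed, and so may larger ones, for example where replicates lie apart. With TMM factors and all libraries, proteinId352255 and proteinId397523 were 3.32-fold and 3.45-fold lower in protoapothecia than in sexual mycelium and were not called. Models under 20 counts in a library carry wide counting error.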
